A study of Mus musculus with 68 samples.

Results

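Tumours of the ileum, the last stretch of the small intestine, were compared with tumours of the colon in 1 ApcMin mouse labelled as a Cftr knockout. The 4 tumours were found by the specimen number of that animal, 2 from the ileum and 2 from the colon, and they are 4 of the 23 specimens of the series. All 4 were read in the second of 2 sequencing runs, each on 2 lanes, so 8 of the 68 columns of the table belong to them. The mouse was C57BL/6 and aged 3 months, and its genotype is labelled Apc-CFTR-. The tumour labels give no alleles, and the protocol names the floxed Cftr allele with Villin-Cre, which acts in intestinal epithelium, for Apc wildtype mice alone. A second ApcMin mouse of the same strain and age with wildtype Cftr gave 2 ileum and 2 colon tumours in the same run, and the same contrast in that animal was set beside this one. Cftr genotype and animal cannot be told apart there, and organ is compared within 1 animal of each genotype. Tumours of 1 animal are not separate animals, so each p-value measures the spread between tumours and specimens of the series. Those specimens include normal duodenum and colon of Apc wildtype mice, with knockout or wildtype Cftr. Tumours of Apc wildtype mice with Cftr knockout and of ApcMin mice labelled Cftr heterozygous are among them too.

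The intestine is patterned along its length. Absorptive cells of the small intestine carry digestive enzymes and carriers for sugars, amino acids, lipids and, in the ileum, bile acids, and their crypts hold Paneth cells, which secrete alpha-defensins and other antimicrobial proteins. Colonocytes take up water and salt, lie beside a thick mucus layer, and normally have no Paneth cells. Regional identity is kept by transcription factors, among them HNF4 and GATA factors in the small intestine and posterior HOX proteins in the colon. Apc restrains Wnt signalling, which drives crypt proliferation, and Cftr is an epithelial channel that passes chloride and bicarbonate. The comparison asks how far tumours that share an Apc allele, a Cftr label and an animal differ by organ.

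Expression was deposited as FPKM, fragments scaled by transcript length and by the mapped fragments of the library, and each tumour's value is the mean of its 2 lanes. Depth cannot be read from FPKM directly, but the steps between low values put the 8 columns within 0.993 to 1.09 of one another in relative depth, and 16608 to 17022 genes were above 0. A gene was called when limma's moderated test on log2(FPKM + 1), averaged over lanes and with its spread taken from all specimens, gave a Benjamini-Hochberg adjusted p of 0.05 or less. Fold changes are ileum minus colon on that scale, which understates changes of low genes. Of 14098 genes tested, 53.7% had a positive change, 1017 were higher in the ileum tumours and 875 were lower, 13.4% in all, with 7.21% higher and 6.21% lower. The groups did not overlap in 58.2% of genes, all called genes among them. An exact permutation test of 2 against 2 cannot give a p below 0.333. In bulk tissue, fewer cells of a type and less RNA per cell cannot be told apart.

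In the knockout animal, ileum tumour 2 held more colon gene RNA than ileum tumour 1. Colon tumour 1 held more duodenal gene RNA than colon tumour 2. Such genes were taken from normal duodenum and colon of Apc wildtype mice, with Cftr knockout and Cftr wildtype mice together. They stood at 5 FPKM or more in one organ and 0.3 FPKM or less in the other, a choice made after the data had been seen. The series has no normal ileum, so a colon gene of this set may be present in ileum. In wildtype ileum tumour 1, Trpm6 and Hoxb9 of that set stood at 97.6% and 82.0% of knockout colon tumour 1, beside a set median of 2.97%. For the duodenal set 3 of the 4 normal colons were used, since colon 2 with wildtype Cftr itself held small-intestinal genes, with Apoa4 at 179.5 FPKM against 1.81 to 4.00 FPKM in the others. Of 26 such colon genes, 19 reached 5 FPKM in colon tumour 1. Relative to that tumour, their median level was 10.5% in ileum tumour 2 (interquartile range 9.64% to 12.99%) and 1.34% in ileum tumour 1. Of 61 such duodenal genes, 35 reached 5 FPKM in ileum tumour 2. Relative to that tumour, their median level was 7.97% in colon tumour 1 (interquartile range 6.74% to 9.89%) and 2.86% in colon tumour 2 (interquartile range 2.42% to 4.01%). In the wildtype animal the same colon genes stood at medians of 2.97% and 0.495% of knockout colon tumour 1 in ileum tumours 1 and 2, and the same duodenal genes at 1.38% and 0.361% of knockout ileum tumour 2 in colon tumours 1 and 2. Against the other tumour of each organ the ranges were wider, with a median of 12.8% (7.21% to 17.5%) for ileum tumour 2 relative to colon tumour 2 and of 11.4% (7.66% to 18.6%) for colon tumour 1 relative to ileum tumour 1. Whether tissue or RNA of the other organ was in these samples, or ileum tumour 2 came from another segment, was not tested. The counts were 451 higher and 396 lower without ileum tumour 2, 533 and 471 without colon tumour 1, and 244 and 234 without both. Every one of the 1017 and 875 genes kept its sign without both tumours. That was fixed in advance, since the groups do not overlap in any called gene. In these genes, chosen by their call with all 4 tumours, the median log2 change of those that rose was 1.10 with all 4. It was 1.10 without both tumours, and -0.85 both ways for genes that fell. Leaving out both leaves 1 tumour per organ, and calls became fewer over all genes. A list that lost calls in that fit is therefore not set apart by the loss.

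**Figure D1:**
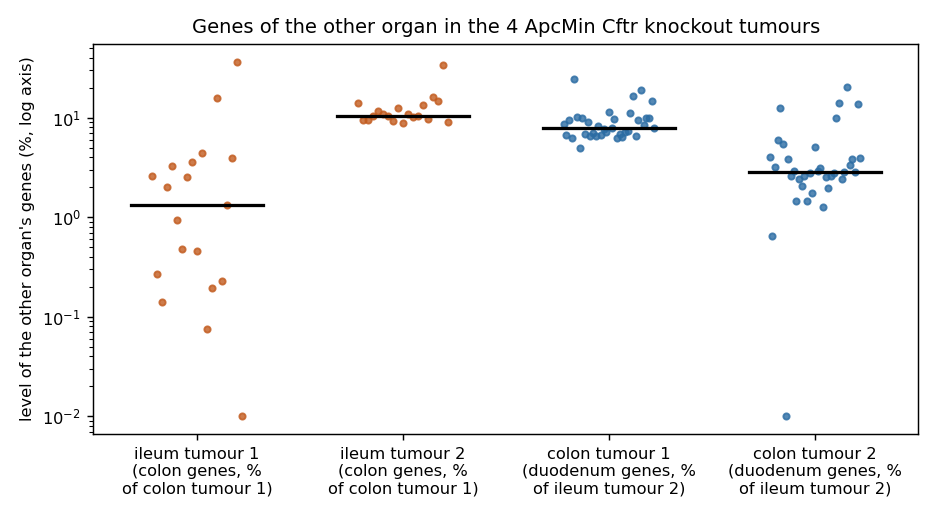
Each point is 1 gene found in normal colon but not normal duodenum, or the reverse. Colon genes are drawn as a percentage of their level in a colon tumour and duodenal genes of that in an ileum tumour. The axis is a log axis, a gene at 0 is drawn at 0.01, and the median is a bar. Relative to colon tumour 1 the colon genes have a median of 10.5% in ileum tumour 2 and 1.34% in ileum tumour 1, and relative to ileum tumour 2 the duodenal genes have a median of 7.97% in colon tumour 1 and 2.86% in colon tumour 2.

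The organ labels were checked against defining markers. The epithelial adhesion gene Epcam stood at 981 and 984 FPKM in the ileum tumours and 854 and 967 FPKM in the colon tumours, and the junction gene Cdh1 at 264 and 276 FPKM in the ileum tumours and 341 and 314 FPKM in the colon tumours, so epithelial genes were high in all 4. The colonocyte gene Car1 separated the organs, with 0.799 and 37.4 FPKM in the ileum tumours, against 314 and 2154 FPKM in the colon tumours. The ileal bile acid binding protein Fabp6 did not. It was at 979.9 and 53.8 FPKM in the ileum tumours, against 50.1 and 82.3 FPKM in the colon tumours, so ileum tumour 2 lay within the colon range. The ileum tumours of the wildtype animal held 10027 and 7104 FPKM and its colon tumours 53.8 and 4.53 FPKM. Slc10a2, the ileal bile acid carrier, was at 55.9 and 11.4 FPKM in the ileum tumours, against 1.58 and 2.21 FPKM in the colon tumours, and Fgf15, the hormone by which the ileum signals bile acid return to the liver, was at 3.73 and 0.702 FPKM, against 0.0894 and 0.0218 FPKM. Ileum tumour 2 instead held more of genes typical of upper small intestine. Lactase, Lct, was at 5.54 and 47.7 FPKM in ileum tumours 1 and 2, the liver-type fatty acid binding protein Fabp1 at 299.7 and 1434 FPKM, and the proximal regulator Gata4 at 14.3 and 29.5 FPKM. Of the 3 defining ileal markers, Fabp6 was thus within the colon range in ileum tumour 2, and Slc10a2 and Fgf15 were above it but lower than in ileum tumour 1.

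Cftr itself (chromosome 6, 18170687 to 18322768, plus strand, GRCm38) was at 40.05 and 31.2 FPKM in the ileum tumours, against 14.2 and 21.4 FPKM in the colon tumours, a log2 change of 0.98 (SE 0.34) that did not pass (limma adjusted p = 0.0794). It was present in all 4 tumours labelled knockout. One value per gene cannot separate exons that a deletion removes from those it leaves, nor epithelium from other cells, and so does not check the label. Apc stood at 15.98 and 12.8 FPKM in the ileum tumours and 17.1 and 16.5 FPKM in the colon tumours and did not pass (adjusted p = 0.369).

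Alpha-defensin genes, whose products Paneth cells secrete, led the 10 largest rises. These were Defa22, Defa21, Defa20, Gm21002, Defa-ps1, Mptx2, Gm15292, Gm15284, Defa5 and Defa24, of which those named Defa are alpha-defensin genes or a pseudogene and Mptx2 is a mucosal pentraxin of Paneth cells. Defa24 was at 12158 and 9035 FPKM in the ileum tumours, against 679 and 230.3 FPKM in the colon tumours, a log2 change of 4.72 (SE 1.21, limma adjusted p = 0.0219). Defa22 was at 797 and 378 FPKM in the ileum tumours, against 23.3 and 5.31 FPKM in the colon tumours, a log2 change of 5.49 (SE 1.38, adjusted p = 0.0201). The groups lay far apart in both genes, and within each organ tumour 1 was the higher.

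Some alpha-defensin genes are near-identical copies of one another, and that bears on how each may be read. The coding sequences below, from the GENCODE M21 transcripts on GRCm38, show the closest pair among the 4 of the largest rises that were aligned, Defa20, Defa21, Defa22 and Defa24, and a pair that both animals expressed. Each has 3 coding exons, is on the plus strand and is 282 bases long. Capitals mark the bases that differ within a pair, 2 between Defa22 (chr8:21162277-21163249) and Defa21 (chr8:21025545-21026516), and 12 between Defa24 (chr8:21734494-21735471) and Defa17 (chr8:21655780-21656735).
Defa22: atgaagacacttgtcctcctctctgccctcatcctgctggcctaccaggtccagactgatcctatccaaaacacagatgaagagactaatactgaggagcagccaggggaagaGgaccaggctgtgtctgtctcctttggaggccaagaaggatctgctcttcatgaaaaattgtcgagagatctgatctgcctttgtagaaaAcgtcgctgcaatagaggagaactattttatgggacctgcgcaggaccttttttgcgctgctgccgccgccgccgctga
Defa21: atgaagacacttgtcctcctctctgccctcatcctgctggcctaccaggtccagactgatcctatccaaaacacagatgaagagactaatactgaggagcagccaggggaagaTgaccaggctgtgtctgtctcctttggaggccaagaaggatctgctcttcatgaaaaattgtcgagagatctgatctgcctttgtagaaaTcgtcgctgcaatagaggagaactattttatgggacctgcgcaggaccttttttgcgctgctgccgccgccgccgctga
Defa24: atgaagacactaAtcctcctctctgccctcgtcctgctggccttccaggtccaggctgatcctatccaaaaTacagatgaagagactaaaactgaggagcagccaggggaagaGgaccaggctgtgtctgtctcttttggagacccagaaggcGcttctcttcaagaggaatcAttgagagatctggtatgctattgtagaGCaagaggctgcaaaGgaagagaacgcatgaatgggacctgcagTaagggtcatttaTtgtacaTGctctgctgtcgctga
Defa17: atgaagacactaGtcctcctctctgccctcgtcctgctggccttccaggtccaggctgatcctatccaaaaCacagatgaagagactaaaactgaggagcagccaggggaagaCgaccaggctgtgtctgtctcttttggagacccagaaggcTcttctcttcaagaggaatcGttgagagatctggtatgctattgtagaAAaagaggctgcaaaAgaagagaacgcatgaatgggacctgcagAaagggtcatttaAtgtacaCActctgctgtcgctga
Defa22 and Defa21 are 99.3% identical over the coding sequence, Defa22 and Defa24 81.4%, and the coding sequence of Defa3 is identical to that of Defa17. Fragments from such copies can be credited to any of them. Near-identical haemoglobin copies traded places between the ileum tumours. Hba-a1 was at 0.398 FPKM and Hba-a2 at 57.3 FPKM in ileum tumour 1, and Hba-a1 at 52.0 FPKM and Hba-a2 at 0.0143 FPKM in ileum tumour 2. Single defensin values are uncertain for that reason, and the sum over copies is given beside them.

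Summed over the 23 alpha-defensin genes in the table, 18 of them above the filter, the level was 23405 and 16503 FPKM in the ileum tumours, against 1225 and 413 FPKM in the colon tumours. Of the 18 tested members 15 rose and none fell, beside 7.21% of all genes that rose, and the median log2 change was 4.68 against 0.024 for all genes. The sum in colon tumour 1 was 7.42% of that in ileum tumour 2, and in colon tumour 2 it was 2.50%. The duodenal genes, which themselves include Defa3 and Defa26, stood at medians of 7.97% and 2.86% in the same ratios. The part of those levels in the colon values was not tested. When ileum tumour 2 and colon tumour 1 were left out, the median was 5.74 and 2 members passed.

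In the wildtype animal the sum over copies was 12073 and 20467 FPKM in the ileum tumours, against 3383 and 169 FPKM in its colon tumours. Single copies stood elsewhere: Defa22 was at 0.692 and 0.320 FPKM in its ileum tumours, Defa21 at 0.174 and 0.160 FPKM, Defa20 at 0.334 and 0.308 FPKM and Gm21002 at 1.17 and 1.54 FPKM, while Defa24 was at 5848 and 8952 FPKM and Defa5 at 702 and 1172 FPKM. Defa3, whose coding sequence is that of Defa17, was at 15.7 and 11.4 FPKM in the knockout ileum tumours and at 0.181 and 0.167 FPKM in the wildtype ileum tumours, and Defa17 at 401 and 320.0 FPKM in the knockout ileum tumours and 158 and 232 FPKM in the wildtype ones. The difference of the organ contrasts between the animals did not pass for any of these (limma adjusted p = 0.887 for Defa3 and 0.934 for Defa22). With 1 animal of each genotype, a difference in the copies an animal carries cannot be told apart from its Cftr genotype.

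Of 14 tested Paneth cell genes 7 rose and 1 fell, with a median log2 change of 2.39, and in the wildtype animal 2 rose and 1 fell. Mptx2 was at 797 and 616 FPKM in the ileum tumours, against 36.98 and 11.6 FPKM in the colon tumours (log2 change 5.01, SE 1.24, adjusted p = 0.0179). Lyz1, the Paneth cell lysozyme, was at 3208 and 1319 FPKM in the ileum tumours, against 284 and 215 FPKM in the colon tumours (adjusted p = 0.0218). In the wildtype animal Lyz1 was at 3162 and 3755 FPKM in ileum tumours, against 4251 and 663 FPKM in colon tumours, where the groups overlap. The intelectin Itln1 was at 1395 and 1173 FPKM, against 94.6 and 41.4 FPKM, and the secreted phospholipase Pla2g2a at 383 and 349 FPKM, against 81.5 and 109 FPKM, in ileum and colon tumours of the knockout animal, and both rose (adjusted p = 0.00595 and 0.00793). The member that fell was the stress-induced nuclear protein gene Nupr1, at 68.5 and 72.98 FPKM in the ileum tumours, against 212 and 284 FPKM in the colon tumours (adjusted p = 0.0350). Without ileum tumour 2 and colon tumour 1 the median log2 change was 2.35.

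Among Reg and other antimicrobial proteins 3 of 20 rose and 3 fell, beside 7.21% and 6.21% of all genes. Lactotransferrin, Ltf, was at 26.6 and 24.7 FPKM in the ileum tumours, against 2.77 and 0.923 FPKM in the colon tumours (adjusted p = 0.00139). Lypd8, which keeps flagellated bacteria off the colonic epithelium, was at 2324 and 3417 FPKM in the ileum tumours, against 9798 and 8017 FPKM in the colon tumours, and fell (log2 change -1.65, SE 0.30, adjusted p = 0.00284). The polymeric immunoglobulin receptor Pigr was at 489 and 588 FPKM, against 989.6 and 931 FPKM, and also fell (adjusted p = 0.0472). The antimicrobial lectins Reg3b and Reg3g did not pass, and the colon tumours lay far apart. Reg3b was at 4629.5 and 4917 FPKM in the ileum tumours, against 709 and 9779.7 FPKM in the colon tumours, and Reg3g at 1629 and 1889 FPKM, against 271 and 2446 FPKM. With ileum tumour 2 and colon tumour 1 left out, 1 member rose and 1 fell.

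**Figure D2:**
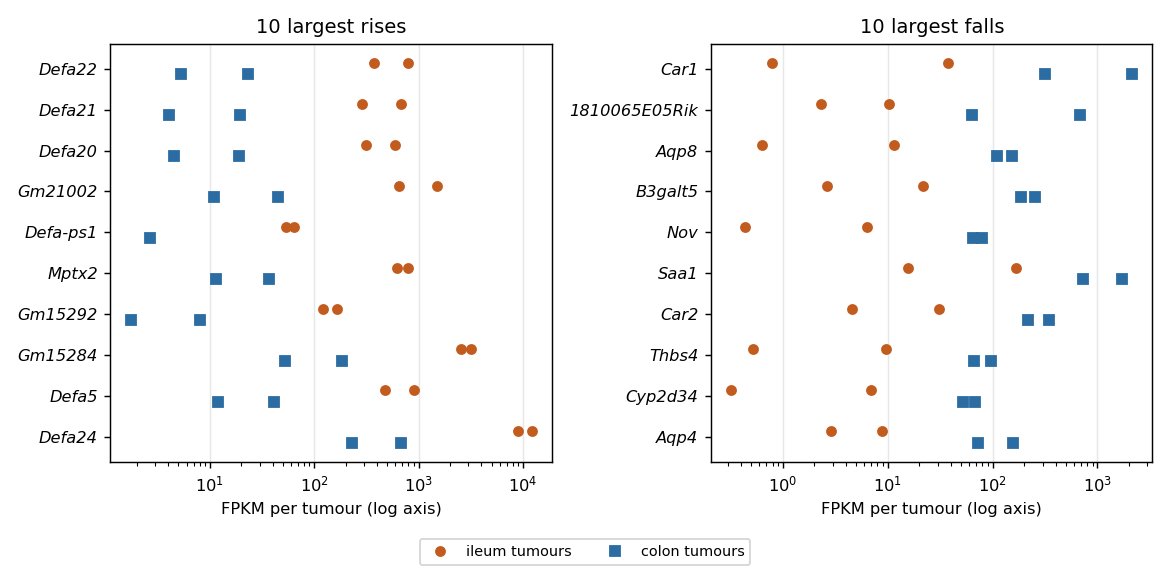
FPKM of the 10 largest rises and 10 largest falls in each tumour (log axis), with ileum tumours as circles and colon tumours as squares. Defa-ps1 is listed at 0 in colon tumour 2 and so has 1 square. The groups do not overlap for any of the 20 genes, which were chosen so, as they do not in any called gene. Among the falls, ileum tumour 2 is the right-hand circle for every gene.

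Colonocyte genes led the 10 largest falls. These were Car1, 1810065E05Rik, Aqp8, B3galt5, Nov, Saa1, Car2, Thbs4, Cyp2d34 and Aqp4. Car1 (chromosome 3, 14766216 to 14808368, minus strand), which encodes carbonic anhydrase 1 and whose levels are given above, had a log2 change of -6.64 (SE 1.65, limma adjusted p = 0.0189). Its level in ileum tumour 2 was 11.9% of that in colon tumour 1, beside a median of 10.5% for colon genes. Aqp8, a colonocyte water channel, was at 0.638 and 11.6 FPKM in the ileum tumours, against 109.5 and 154 FPKM in the colon tumours, and at 10.6% in the same ratio. The galactosyltransferase gene B3galt5 was at 2.62 and 21.6 FPKM, against 189 and 252 FPKM, and the matricellular gene Nov at 0.439 and 6.42 FPKM, against 64.8 and 79.8 FPKM. In all 10 falls ileum tumour 1 was the lower of the ileum tumours.

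Of 24 tested genes of colonocyte ion and water transport, 8 fell and 1 rose, with a median log2 change of -0.87, and in the wildtype animal 9 fell and 2 rose. Carbonic anhydrase 2, Car2, was at 4.55 and 30.8 FPKM in the ileum tumours, against 219.7 and 342 FPKM in the colon tumours (adjusted p = 0.00534). The epithelial sodium channel subunit Scnn1a was at 7.28 and 8.90 FPKM, against 28.6 and 23.1 FPKM (log2 change -1.56, SE 0.28, adjusted p = 0.00296), and the subunit Scnn1b at 0.499 and 1.14 FPKM, against 4.50 and 2.65 FPKM (adjusted p = 0.00243). The chloride channel gene Best2 was at 0.0370 and 2.56 FPKM in the ileum tumours, against 26.6 and 3.60 FPKM in the colon tumours (adjusted p = 0.0278), and colon tumour 2 stood just above ileum tumour 2. Best2 is itself among the colon genes given above, and its level in ileum tumour 2 was 9.60% of that in colon tumour 1. The exception was the anion exchanger Slc26a6, which was at 41.2 and 48.4 FPKM in the ileum tumours, against 4.51 and 2.04 FPKM in the colon tumours (log2 change 3.48, SE 0.41, adjusted p = 0.000206). With ileum tumour 2 and colon tumour 1 left out, 6 fell and 1 rose.

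Among 24 other colon epithelial genes 6 fell and 2 rose, the rises being the Paneth cell products Itln1 and Pla2g2a given above. The membrane mucin Muc1 was at 0.789 and 3.98 FPKM in the ileum tumours, against 38.7 and 17.04 FPKM in the colon tumours (log2 change -3.17, SE 0.48, adjusted p = 0.00112). Serum amyloid A, Saa1, an acute-phase protein made by colonic epithelium, was at 15.6 and 169 FPKM in the ileum tumours, against 1715 and 728 FPKM in the colon tumours (adjusted p = 0.0313). Hao2, a peroxisomal oxidase, was at 0.622 and 6.97 FPKM, against 72.2 and 49.04 FPKM (adjusted p = 0.00262). Claudin 8, Cldn8, a tight junction protein of the colon, was at 1.08 and 5.49 FPKM in the ileum tumours, against 53.03 and 40.1 FPKM in the colon tumours (log2 change -3.69, SE 0.43, limma adjusted p = 0.000205). It was 1 of 2 that fell among 20 tight junction genes (10%, beside 6.21% of all genes), with none that rose. The fit without ileum tumour 2 and colon tumour 1 left 3 other colon genes and 1 tight junction gene lower, with none higher in either list.

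Genes of lipid absorption had the largest share of risen members of any list after the alpha-defensins. Of 24 tested members 18 rose and 1 fell, with a median log2 change of 3.11, and in the wildtype animal 17 rose and none fell. Dgat1, which completes triglyceride synthesis, was at 148 and 205 FPKM in the ileum tumours, against 28.9 and 23.6 FPKM in the colon tumours, a log2 change of 2.69 (SE 0.20, limma adjusted p = 1.48e-05). Mogat2, which acts one step earlier, was at 83.8 and 117 FPKM, against 7.82 and 4.95 FPKM (adjusted p = 0.000239). Both colon tumours lay well under both ileum tumours in each of these. Apob, the structural protein of chylomicrons, was at 123 and 134 FPKM in the ileum tumours, against 12.97 and 6.33 FPKM in the colon tumours (log2 change 3.68, SE 0.43, adjusted p = 0.000215). Npc1l1, the carrier for dietary cholesterol, was at 62.5 and 85.5 FPKM, against 6.21 and 2.22 FPKM (adjusted p = 0.000582). Apoa4 was at 739 and 1922 FPKM in the ileum tumours, against 133 and 38.2 FPKM in the colon tumours, and tumour 2 was the higher ileum tumour (adjusted p = 0.0318). The lipid droplet protein Plin2 was the member that fell, at 36.6 and 44.4 FPKM in the ileum tumours, against 92.2 and 68.3 FPKM in the colon tumours (adjusted p = 0.0300). Fabp1 did not pass, with a log2 change of 3.37 (SE 1.53, adjusted p = 0.183) and ileum tumour 2 far above ileum tumour 1. With ileum tumour 2 and colon tumour 1 left out, 11 members rose and none fell.

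Of 25 brush-border hydrolases and sugar carriers 17 rose and none fell, with a median log2 change of 2.82, and 19 rose in the wildtype animal. Sucrase-isomaltase, Sis (chromosome 3, 72888557 to 72967863, minus strand), which digests starch and sucrose, was at 266 and 222 FPKM in the ileum tumours, against 16.9 and 6.30 FPKM in the colon tumours, a log2 change of 4.42 (SE 0.68, limma adjusted p = 0.00120). Ggt1, a gamma-glutamyltransferase, was at 95.2 and 112 FPKM, against 14.6 and 7.75 FPKM (adjusted p = 3.31e-05), and trehalase, Treh, at 17.8 and 29.8 FPKM, against 3.14 and 1.24 FPKM (adjusted p = 0.00350). In each gene both ileum tumours lay above both colon tumours, as in every gene called higher. The sodium-glucose carrier Slc5a1 was at 293 and 378 FPKM in the ileum tumours, against 56.6 and 37.99 FPKM in the colon tumours (log2 change 2.81, SE 0.31, adjusted p = 0.000150). The microvillus protein villin, Vil1, present in both organs, was at 389 and 442 FPKM, against 209 and 238 FPKM (log2 change 0.89, adjusted p = 0.0278). With ileum tumour 2 and colon tumour 1 left out, 7 members rose and none fell.

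Amino acid and peptide carriers rose in 10 of 16 members and fell in 1. Slc6a19, the main sodium-dependent carrier of neutral amino acids, was at 139 and 152 FPKM in the ileum tumours, against 11.3 and 4.69 FPKM in the colon tumours (log2 change 4.13, SE 0.49, adjusted p = 0.000228). The cystine carrier subunits Slc7a9 and Slc3a1 were at 89.4 and 90.7 FPKM and 64.7 and 60.2 FPKM in the ileum tumours, against 11.4 and 3.90 FPKM and 5.87 and 13.3 FPKM in the colon tumours, and both rose (adjusted p = 0.000545 and 0.00789). Slc6a14, a broad amino acid carrier of the colon, went the other way, at 3.79 and 18.2 FPKM in the ileum tumours, against 157 and 174 FPKM in the colon tumours (log2 change -4.11, SE 0.66, adjusted p = 0.00152). Of 17 genes of vitamin B12, folate and retinoid handling 4 rose and none fell. They were Amn, a subunit of the vitamin B12 receptor, at 21.02 and 21.5 FPKM, against 1.91 and 1.58 FPKM, the B12 carrier Tcn2 at 82.3 and 91.2 FPKM, against 38.6 and 27.6 FPKM, the retinol-binding Rbp2 at 1860.2 and 3040.5 FPKM, against 209 and 79.98 FPKM, and the retinal dehydrogenase Aldh1a2 at 6.14 and 5.37 FPKM, against 1.60 and 0.424 FPKM, in ileum and colon tumours. With ileum tumour 2 and colon tumour 1 left out, 5 amino acid carriers rose and 1 fell, and 4 vitamin genes rose.

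Of the 9 tested genes of the bile acid axis 2 rose (22.2%) and 1 fell (11.1%), beside 7.21% and 6.21% of all genes. In the wildtype animal 3 rose and 1 fell. Slc51a, a subunit of the basolateral bile acid exporter, was at 166 and 102 FPKM in the ileum tumours, against 9.41 and 6.28 FPKM in the colon tumours (log2 change 3.91, SE 0.85, adjusted p = 0.00902). Its partner Slc51b, at 93.5 and 66.8 FPKM, against 18.9 and 48.5 FPKM, did not pass (adjusted p = 0.417). The apical exporter Abcc2 rose, at 22.3 and 28.1 FPKM, against 3.36 and 1.09 FPKM (adjusted p = 0.00271), and the basolateral exporter Abcc3 fell, at 10.4 and 16.8 FPKM, against 38.05 and 42.9 FPKM (adjusted p = 0.0280). Slc10a2 had a log2 change of 3.21 (SE 1.37, adjusted p = 0.153), Fabp6 of 1.83 (SE 2.76, adjusted p = 0.736) and Fgf15 of 1.43 (SE 1.25, adjusted p = 0.523), and none of the 3 passed. Leaving out ileum tumour 1 turned the Fabp6 change to -0.25. In the fit without ileum tumour 2 and colon tumour 1, 1 member rose and none fell.

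**Figure D3:**
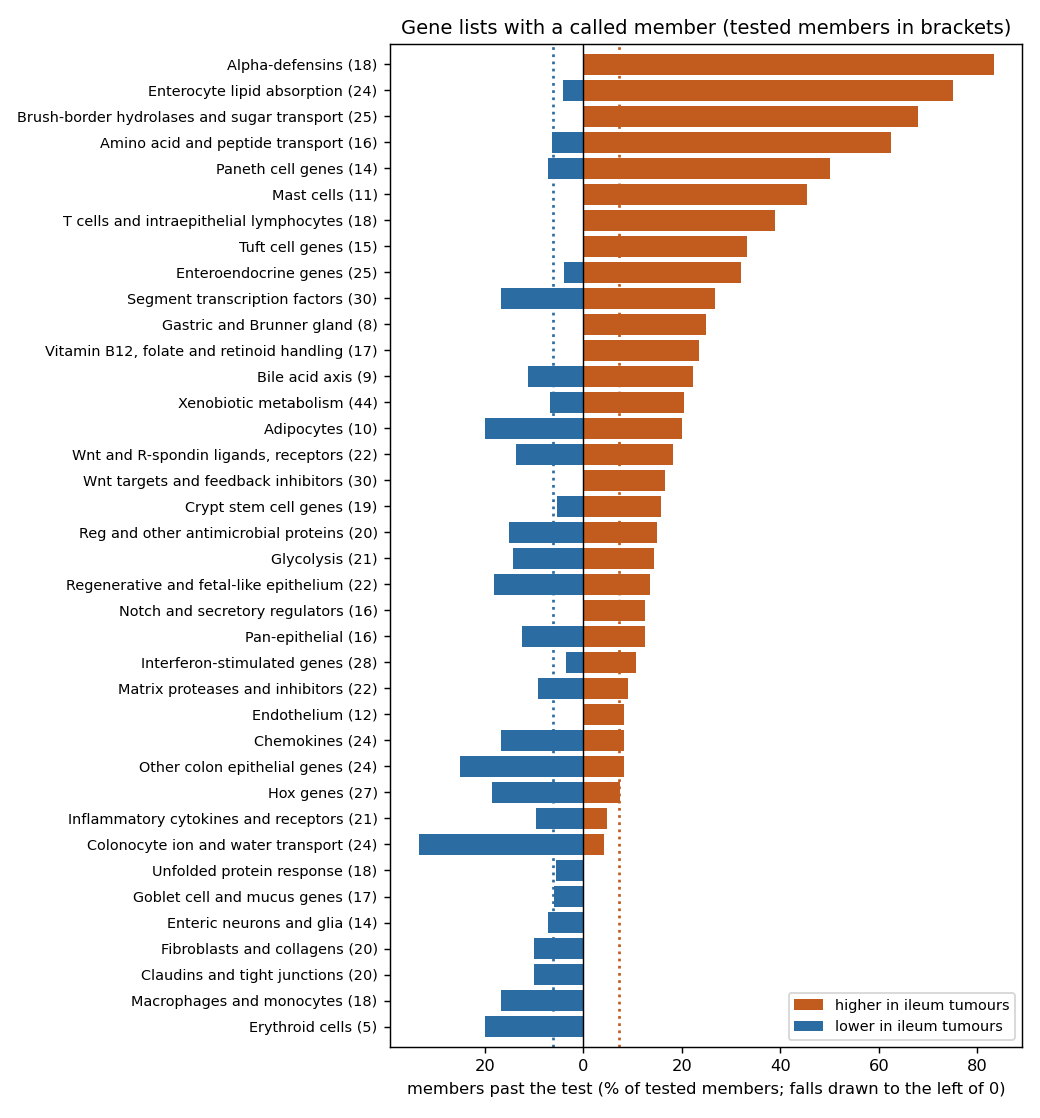
Share of tested members that passed, higher in ileum tumours to the right of 0 and lower to the left, for each list with at least 1 called member. Dotted lines mark the shares over all 14098 genes, 7.21% and 6.21%. Alpha-defensins, lipid absorption, brush border and amino acid transport stand far to the right, and colonocyte transport reaches farthest to the left.

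Promoter sequences of 3 of these risen genes are shown because they hold letters bound by enterocyte regulators, of which Hnf4g rose and Cdx1 fell. They are the 250 bases before the start of transcription, from RefSeq on GRCm38.p6, of Sis (chr3:72967864-72968113, minus strand), Treh (chr9:44672983-44673232, plus strand) and Slc3a1 (chr17:85028097-85028346, plus strand). Capitals mark GCAATAAA (CDX) in Sis, and CAAAGTCCA (HNF4) in Treh, on the opposite strand, and in Slc3a1. The letters were chosen with these promoters in view, and were searched on both strands, and the 2 motifs do not overlap here.
Sis: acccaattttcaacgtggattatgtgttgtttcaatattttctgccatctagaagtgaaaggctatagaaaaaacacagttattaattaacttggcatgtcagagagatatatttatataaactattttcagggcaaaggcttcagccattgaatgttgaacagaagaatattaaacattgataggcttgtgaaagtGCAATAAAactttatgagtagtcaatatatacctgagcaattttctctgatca
Treh: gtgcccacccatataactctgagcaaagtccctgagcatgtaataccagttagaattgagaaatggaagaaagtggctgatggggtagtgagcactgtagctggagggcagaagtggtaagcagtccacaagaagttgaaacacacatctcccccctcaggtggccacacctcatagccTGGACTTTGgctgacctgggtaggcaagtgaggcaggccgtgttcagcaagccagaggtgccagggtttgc
Slc3a1: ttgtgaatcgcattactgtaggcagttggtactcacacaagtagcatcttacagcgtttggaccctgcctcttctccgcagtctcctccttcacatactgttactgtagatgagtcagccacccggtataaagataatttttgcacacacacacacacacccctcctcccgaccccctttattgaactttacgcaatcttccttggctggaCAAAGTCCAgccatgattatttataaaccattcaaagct
The Sis match begins 53 bases before the start, the Treh match 71 and the Slc3a1 match 39. The HNF4 letters occur in 0.451% of all 27025 promoters of that length, in 0.528% of the 10417 promoters of tested genes, in 1.62% of the 739 matched genes that rose (12 genes) and in 0.481% of the 624 that fell (3 genes). The CDX letters occur in 1.01% of all promoters, 0.682% of those of tested genes, 0.947% of the risen and 0.801% of the fallen. A match describes the letters and is not evidence of binding.

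Transcription factors of intestinal regions differed in 13 of 30 members, 8 higher and 5 lower. Hnf4g, an HNF4 factor of enterocytes, was at 53.4 and 57.6 FPKM in the ileum tumours, against 10.6 and 14.4 FPKM in the colon tumours, a log2 change of 2.08 (SE 0.23, limma adjusted p = 0.000180). Creb3l3, a regulator of lipoprotein genes, was at 81.1 and 122 FPKM, against 9.57 and 6.78 FPKM (adjusted p = 0.000206), Maf at 33.4 and 26.9 FPKM, against 3.80 and 2.87 FPKM (adjusted p = 0.000789), and Gata4 at 14.3 and 29.5 FPKM, against 1.94 and 0.614 FPKM (adjusted p = 0.00253). Osr2, Tbx3 and Gata6 also rose. Lower members included the forkhead genes Foxd2, at 0.0542 and 1.07 FPKM, against 11.9 and 22.8 FPKM, and Foxa2, at 3.26 and 4.54 FPKM, against 15.6 and 11.6 FPKM, as well as Cdx1. Cdx2, an intestinal master regulator, did not pass. It was at 72.2 and 68.9 FPKM in the ileum tumours, against 18.99 and 106 FPKM in the colon tumours, so colon tumour 1 lay far below and colon tumour 2 above both ileum tumours. The wildtype colon tumours showed a like gap, with 24.9 and 108 FPKM. Leaving out ileum tumour 2 and colon tumour 1 left 5 regional factors higher and 3 lower.

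Of 27 tested Hox genes 5 fell (18.5%) and 2 rose (7.41%), beside 6.21% and 7.21% of all genes. The falls were all in the HoxA cluster. Hoxa13 (chromosome 6, 52257694 to 52260880, minus strand) was at 0.0294 and 1.58 FPKM in the ileum tumours, against 15.1 and 19.9 FPKM in the colon tumours (log2 change -3.49, SE 0.33, adjusted p = 7.02e-05). Hoxa11 was at 0.0160 and 0.308 FPKM, against 3.88 and 9.47 FPKM, Hoxa10 at 0.0167 and 2.18 FPKM, against 22.2 and 36.5 FPKM, and Hoxa9 at 0.680 and 2.15 FPKM, against 10.6 and 13.3 FPKM (adjusted p = 9.20e-05, 0.000206 and 0.00834). The level of Hoxa10 in ileum tumour 2 was 9.83% of that in colon tumour 1, beside the median of 10.5% for colon genes. Hoxa13, at 10.5% in that ratio, is itself 1 of those colon genes. Hoxa6 also fell. The genes that rose were the anterior Hoxc6, at 1.53 and 1.05 FPKM, against 0.0774 and 0.101 FPKM, and Hoxc4, at 0.606 and 0.521 FPKM, against 0.0806 and 0 FPKM, both at low levels. The most posterior genes of 2 other clusters split the colon tumours. Hoxd13 was at 0.158 and 8.37 FPKM in the ileum tumours, against 98.99 and 4.62 FPKM in the colon tumours, and Hoxb13 at 0.383 and 22.4 FPKM, against 229 and 24.8 FPKM, so colon tumour 2 resembled ileum tumour 2 in both. Neither passed (limma adjusted p = 0.254 and 0.0704), and in the wildtype animal Hoxd13 was at 0.0532 and 0.0657 FPKM in the colon tumours. Colon genes stood in knockout ileum tumour 2 at a median of 10.5% of colon tumour 1. The part of that in its Hoxd13 and Hoxb13 values was not tested. Leaving out ileum tumour 2 and colon tumour 1 left 3 Hox genes lower and none higher.

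**Figure D4:**
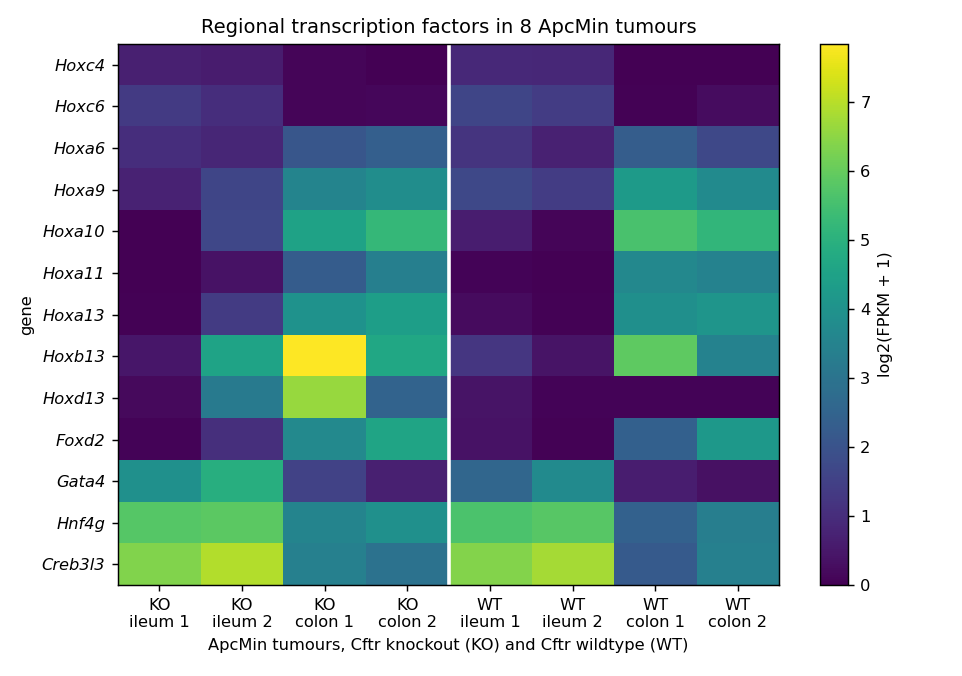
Level of 13 regional regulators, as log2(FPKM + 1), in the 4 knockout tumours on the left and the 4 wildtype tumours on the right, ileum before colon in each. Hoxa9 to Hoxa13 and Foxd2 are brighter in all 4 colon tumours than in the ileum tumours, while Hoxd13 is brightest in knockout colon tumour 1 and dark in the wildtype colon tumours.

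Tumours of an organ differed from each other as well. With 1 tumour against 1 and no test, 43 of 9423 genes at 5 FPKM or more were higher in colon tumour 1 than in colon tumour 2 by a log2 difference of 2 or more, and 26 were lower. Between the ileum tumours 6 were higher in tumour 1 and 27 in tumour 2, of 9448 genes. Colon tumour 1 held more of Hoxb13, Hoxd13 and its neighbours Hoxd10 and Hoxd12. In colon tumours 1 and 2 the pentraxin Mptx1 was at 350.1 and 18.2 FPKM, and the secreted lectin Reg4, a marker of deep crypt secretory cells, at 366 and 40.3 FPKM. Colon tumour 2 held more Car1, Reg3b and Reg3g, and the goblet cell defence gene Retnlb was at 55.4 and 409 FPKM in colon tumours 1 and 2. Among the 27 genes higher in ileum tumour 2 were the colon genes Car1, Hoxb13, Saa1, Aqp8 and Car2 as well as the upper intestinal Lct and Fabp1.

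Of 17 goblet cell and mucus genes none rose and 1 fell, beside 6.21% of all genes that fell. Ern2, a mucosal endoplasmic reticulum stress sensor, was at 18.7 and 14.7 FPKM in the ileum tumours, against 32.4 and 34.9 FPKM in the colon tumours (adjusted p = 0.0271), and was also the 1 of 18 unfolded protein response genes that fell. The secreted mucin Muc2 was at 126 and 217 FPKM, against 236 and 409.8 FPKM, and did not pass (log2 change -0.91, SE 0.69). Of 25 enteroendocrine genes 8 rose and 1 fell. The rises included hormones of the upper gut, among them ghrelin, Ghrl, at 8.85 and 16.9 FPKM in the ileum tumours, against 0.883 and 0.538 FPKM in the colon tumours (adjusted p = 0.00132), cholecystokinin, Cck, at 13.4 and 18.3 FPKM, against 3.19 and 3.61 FPKM (adjusted p = 0.00155), and the incretin Gip, at 17.4 and 50.6 FPKM, against 4.17 and 1.33 FPKM (adjusted p = 0.0128). Insl5, a hormone of colonic endocrine cells, fell, at 0.135 and 5.76 FPKM in the ileum tumours, against 59.4 and 16.8 FPKM in the colon tumours (log2 change -3.56, SE 0.76, adjusted p = 0.00796).

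Of 15 tuft cell genes 5 rose and none fell. They were the actin-binding Avil, at 65.8 and 53.9 FPKM in the ileum tumours, against 9.29 and 7.60 FPKM in the colon tumours (log2 change 2.69, SE 0.53, adjusted p = 0.00529), Plcg2, Alox5, Sucnr1, and the taste channel Trpm5, at 6.07 and 6.79 FPKM, against 1.18 and 1.89 FPKM (adjusted p = 0.0215). In the wildtype animal 1 tuft cell gene rose. The lineage factor Pou2f3 was at 1.75 and 2.40 FPKM, against 0.387 and 0.543 FPKM, and did not pass (adjusted p = 0.0610). The median log2 change of tuft cell genes was 0.87 without ileum tumour 2 and colon tumour 1, against 0.98 with all 4 tumours. It was 0.29 for enteroendocrine genes, against 0.41, and -0.74 for goblet cell genes, against -0.45.

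All 4 tumours carry ApcMin, which acts on Wnt signalling. Of 30 tested targets and feedback inhibitors 5 rose and none fell, beside 7.21% of all genes, with a median log2 change of 0.82 against 0.024 for all genes. Sp5, a transcription factor induced by Wnt, was at 27.2 and 21.1 FPKM in the ileum tumours, against 3.09 and 2.94 FPKM in the colon tumours, a log2 change of 2.64 (SE 0.33, limma adjusted p = 0.000291). The transcription partners of beta-catenin Lef1, at 4.85 and 3.77 FPKM, against 1.13 and 1.35 FPKM, and Tcf7, at 24.4 and 19.8 FPKM, against 9.86 and 7.10 FPKM, rose too (adjusted p = 0.0277 and 0.0434), as did Ifitm1 and Dkk3. The feedback inhibitors Notum, at 106 and 96.8 FPKM in the ileum tumours, against 12.1 and 14.8 FPKM in the colon tumours, and Nkd1, at 74.4 and 56.9 FPKM, against 8.89 and 15.4 FPKM, did not pass (adjusted p = 0.0865 and 0.0574). Axin2 was at 50.5 and 37.5 FPKM, against 24.4 and 16.6 FPKM (adjusted p = 0.120). In the wildtype animal 2 targets rose, 1 fell and the median was 0.13, and its colon tumours lay apart, with Notum at 68.7 and 23.7 FPKM. Without ileum tumour 2 and colon tumour 1, Sp5 was the 1 target that passed.

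Of 22 Wnt and R-spondin ligands and receptors 4 rose (18.2%) and 3 fell (13.6%), beside 7.21% and 6.21% of all genes. The receptor Fzd1 was at 3.28 and 3.53 FPKM in the ileum tumours, against 18.9 and 14.8 FPKM in the colon tumours, a log2 change of -2.01 (SE 0.15, adjusted p = 2.03e-05). Fzd10 went the other way, at 4.65 and 2.71 FPKM, against 0.245 and 0.527 FPKM (adjusted p = 0.00534). Wls, which exports Wnt proteins, and the co-receptor Lrp6 fell, and Wnt3, a ligand of Paneth cells, Wnt6 and the co-receptor Lrp5 rose, with Wnt3 at 3.08 and 1.38 FPKM in the ileum tumours, against 0.394 and 0.589 FPKM in the colon tumours (adjusted p = 0.0162). Among 19 crypt stem cell genes 3 rose (15.8%) and 1 fell (5.26%). Olfm4, a stem cell gene of the small intestine, was at 105 and 66.4 FPKM, against 6.19 and 2.80 FPKM (log2 change 4.02, SE 0.62, adjusted p = 0.00121), and Tnfrsf19 at 27.8 and 20.3 FPKM, against 2.59 and 3.70 FPKM (adjusted p = 0.00660). Lgr5, the crypt base receptor, was at 20.1 and 9.91 FPKM in the ileum tumours, against 8.69 and 3.75 FPKM in the colon tumours, and did not pass (adjusted p = 0.237). Olfm4 is also a member of the Notch list, where 2 of 16 rose (12.5%, beside 7.21% of all genes) and none fell. The other that rose was the Notch target Hey1. Leaving out ileum tumour 2 and colon tumour 1 left 1 higher and 1 lower both among the ligands and receptors and among the stem cell genes, and 1 Notch gene higher.

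None of 26 cell cycle and replication genes passed in limma's test, and 4 had an unadjusted p under 0.05. Of the 26, 23 had a positive change and 3 a negative one, with a median log2 change of 0.28 against 0.024 for all genes. The summed level was 862 and 834 FPKM in the ileum tumours, against 638 and 773 FPKM in the colon tumours. The smallest p was that of Cdt1, which licenses replication origins, at 13.9 and 14.1 FPKM in the ileum tumours, against 9.40 and 10.3 FPKM in the colon tumours (log2 change 0.47, SE 0.15, adjusted p = 0.0507). Mki67, a proliferation marker, was among the 3 with a negative change, at 20.2 and 18.8 FPKM in the ileum tumours, against 22.2 and 25.1 FPKM in the colon tumours, a log2 change of -0.27 (SE 0.17). Among 22 genes of regenerative and fetal-like epithelium 4 fell (18.2%) and 3 rose (13.6%), beside 6.21% and 7.21% of all genes. Ly6a, a marker of injured and fetal-like colonic epithelium, was at 71.2 and 118 FPKM in the ileum tumours, against 726 and 724 FPKM in the colon tumours (log2 change -2.97, SE 0.35, adjusted p = 0.000206). Annexin A1, Anxa1, was at 136 and 156 FPKM, against 462 and 427 FPKM (adjusted p = 0.000185). The keratin Krt23 rose, at 120.1 and 113 FPKM, against 21.2 and 19.9 FPKM (adjusted p = 0.00121). Without ileum tumour 2 and colon tumour 1, 3 regenerative genes fell and 1 rose.

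Of 18 genes of T cells and intraepithelial lymphocytes 7 rose and none fell. Itgae, the integrin that holds lymphocytes in the epithelium, was at 2.62 and 3.79 FPKM in the ileum tumours, against 1.14 and 0.684 FPKM in the colon tumours (log2 change 1.14, SE 0.22, adjusted p = 0.00503), and Cd8a, the CD8 co-receptor, at 1.20 and 1.39 FPKM, against 0.223 and 0.192 FPKM (adjusted p = 0.0134). The chemokine Ccl25, which draws lymphocytes to the small intestine, was at 155 and 164 FPKM in the ileum tumours, against 15.03 and 7.83 FPKM in the colon tumours, a log2 change of 3.76 (SE 0.35, adjusted p = 6.24e-05). Ccl28, its counterpart in colon, was at 4.69 and 8.12 FPKM, against 46.04 and 38.4 FPKM, and fell (adjusted p = 0.00223). Of 24 chemokines 2 rose (8.33%), Ccl25 and Ccl5, and 4 fell (16.7%), Ccl28, Cxcl12, Ccl7 and Ccl8, beside 7.21% and 6.21% of all genes. The median log2 change of T cell genes was 0.69 without ileum tumour 2 and colon tumour 1, against 0.66 with all 4 tumours. For chemokines it was -0.18, against -0.56.

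Mast cell genes rose in 5 of 11 members, with ileum tumour 2 high. The mucosal mast cell protease Mcpt2 was at 116 and 375 FPKM in the ileum tumours, against 29.7 and 47.4 FPKM in the colon tumours (log2 change 2.45, SE 0.58, adjusted p = 0.0148). The summed level of the list was 307 and 974 FPKM in the ileum tumours, against 92.1 and 133 FPKM in the colon tumours. Its median log2 change moved to 0.80 without ileum tumour 2 and colon tumour 1, against 1.73 with all 4. Macrophage and monocyte genes fell in 3 of 18 members (16.7%), beside 6.21% of all genes, with none risen. The endotoxin co-receptor Cd14 was at 14.8 and 19.1 FPKM in the ileum tumours, against 63.1 and 36.2 FPKM in the colon tumours (adjusted p = 0.00253). Among 21 inflammatory cytokines and receptors 1 rose (4.76%) and 2 fell (9.52%), near the 7.21% and 6.21% of all genes. The alarmin Il33 was at 51.4 and 75.2 FPKM, against 17.1 and 7.89 FPKM, and rose (adjusted p = 0.0142), while the epithelial cytokine Il18 was at 25.02 and 46.8 FPKM, against 171 and 103 FPKM, and fell (adjusted p = 0.00388). Of 28 interferon-stimulated genes 3 rose (10.7%) and 1 fell (3.57%), near the 7.21% and 6.21% of all genes. Their median log2 change was 0.074 without ileum tumour 2 and colon tumour 1, against 0.22 with all 4 tumours. For macrophage genes it was -0.23, against -0.30, and for cytokines -0.18, against -0.23. No member of the lists for MHC class II presentation (11 genes), B and plasma cells (14) and neutrophils (13) passed in limma's test, and 1, 0 and 0 had an unadjusted p under 0.05.

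In the stroma, the matrix gene Postn was at 11.2 and 11.9 FPKM in the ileum tumours, against 51.5 and 79.1 FPKM in the colon tumours (log2 change -2.37, SE 0.35, limma adjusted p = 0.00101). With Col3a1 it made up the 2 falls among 20 fibroblast genes (10%), beside 6.21% of all genes that fell. Smooth muscle genes gave no call among 14 in limma's test, 1 had an unadjusted p under 0.05, and their summed level was 692 and 664 FPKM in the ileum tumours, against 675 and 268 FPKM in the colon tumours. Of the remaining cell type lists, endothelium gave 1 rise of 12 (8.33%), and neurons and glia 1 fall of 14 (7.14%). Both shares are near the 7.21% that rose and the 6.21% that fell over all genes. Adipocytes gave 2 rises and 2 falls of 10 (20% each way), erythroid cells 1 fall of 5 (20%), and gastric and Brunner gland genes 2 rises of 8 (25%). Pancreatic acinar genes gave no call of 6 in limma's test, with 0 at an unadjusted p under 0.05. Pan-epithelial genes gave 2 rises and 2 falls of 16, 12.5% each way, beside 7.21% and 6.21% of all genes. The gastric gland gene Gkn3 was at 248 and 223 FPKM in the ileum tumours, against 13.2 and 5.98 FPKM in the colon tumours (adjusted p = 0.0228). The summed gastric and Brunner gland level in colon tumour 1 was 6.39% of that in ileum tumour 2, beside 7.97% for duodenal genes. In the fit without ileum tumour 2 and colon tumour 1, 1 gene each fell among fibroblast, adipocyte, erythroid and pan-epithelial genes, and none of the other cell types just named gave a call.

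In metabolism, 9 of 44 xenobiotic genes rose (20.5%) and 3 fell (6.82%), beside 7.21% and 6.21% of all genes. Cyp1b1 was at 7.86 and 4.43 FPKM in the ileum tumours, against 0.394 and 0.227 FPKM in the colon tumours (log2 change 2.41, SE 0.27, adjusted p = 0.000185), and Cyp2d34, another cytochrome P450, at 0.323 and 6.999 FPKM, against 67.8 and 51.8 FPKM (adjusted p = 0.00112). Of 21 glycolysis genes 3 rose and 3 fell, 14.3% each way. The hexokinase Hk1 was at 18.1 and 21.8 FPKM in the ileum tumours, against 42.6 and 57.7 FPKM in the colon tumours (adjusted p = 0.00222). Matrix proteases and inhibitors gave 2 rises and 2 falls of 22, 9.09% each way and so near the shares of all genes. The plasminogen activator Plat was at 156 and 105 FPKM, against 24.2 and 21.5 FPKM (limma adjusted p = 0.00509). None of 22 genes of fatty acid oxidation and ketone bodies, 21 of cholesterol synthesis and 18 immediate early genes passed in limma's test, and 4, 4 and 0 had an unadjusted p under 0.05. In the fit without ileum tumour 2 and colon tumour 1, 2 xenobiotic genes were higher and 1 lower, 2 glycolysis genes were lower and none higher, and no matrix protease or inhibitor was called.

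The contrast was then set beside the same one in the ApcMin mouse with wildtype Cftr, whose 4 tumours are other samples, although both contrasts take their spread from the same fit. There 1004 genes were higher in ileum tumours and 663 lower, 7.12% and 4.70% of those tested. Of the 1017 genes that rose in the knockout animal, 996 (97.9%) had a positive change in the wildtype animal, where 50.5% of all genes did, and 622 (61.2% of the 1017 and 62.0% of the 1004) rose. Of the 875 that fell, 850 (97.1%) had a negative change and 442 (50.5% of the 875 and 66.7% of the 663) fell. Only 2 genes were called in opposite directions. Across all genes the log2 changes of the animals had a Pearson r of 0.81 and a Spearman rho of 0.66, as a description, since genes are not independent replicates.

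The difference between the animals was tested directly. None of 14098 genes passed in limma's test. Before adjustment 690 (4.89%) were under 0.05, near the share that falls there when no gene differs. With 2 tumours a group and 1 animal of each genotype, that share cannot show that no gene differs. Akr1b7, an aldo-keto reductase gene, came nearest to passing. It was at 12.3 and 14.03 FPKM in the knockout ileum tumours, against 3.67 and 4.11 FPKM in the knockout colon tumours, and at 49.02 and 43.5 FPKM in the wildtype ileum tumours, against 0.754 and 1.97 FPKM in the wildtype colon tumours, a difference of the log2 changes of -2.84 (SE 0.37, adjusted p = 0.0561). The cytochrome gene Cyp3a25 had a difference of -2.81 (adjusted p = 0.906), with 13.7 and 26.2 FPKM in knockout and 47.8 and 69.6 FPKM in wildtype ileum tumours. Procr, Alas2 and Nek3 were the other genes of negative sign with the smallest p. Of positive sign these were Defa3, Engase, Sgsm1, H19 and 4922501L14Rik. The imprinted RNA H19 was at 3.87 and 1.68 FPKM in the knockout colon tumours, against 7.79 and 4.79 FPKM in the wildtype colon tumours. Without wildtype colon tumour 2 the count was 149 positive and 141 negative. Fabp6 had a difference of -7.10 (SE 3.91, adjusted p = 0.934), and did not pass.

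**Figure D5:**
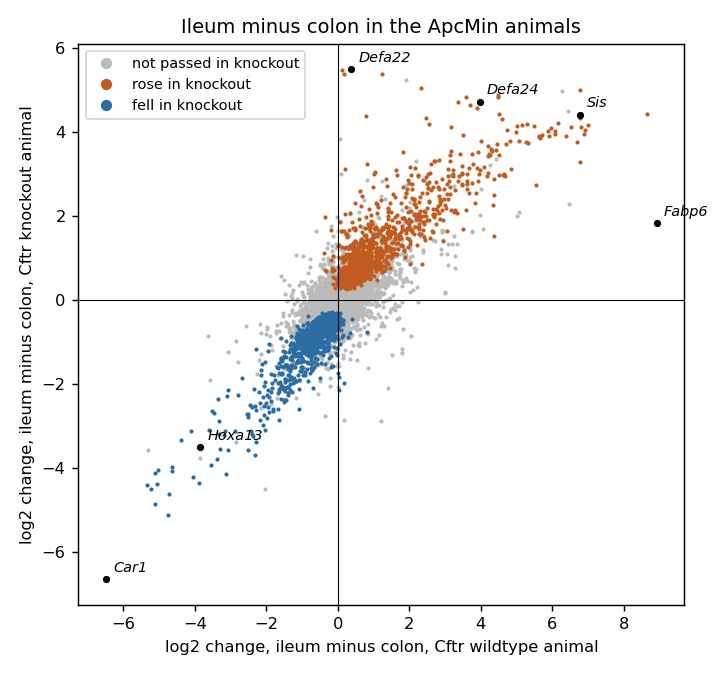
Each point is 1 of 14098 genes, with its log2 change, ileum minus colon, in the knockout animal on the vertical axis and in the wildtype animal on the horizontal axis. Genes that rose or fell in the knockout animal lie mostly in the upper right and lower left, while Defa22 lies near 0 on the horizontal axis and Fabp6 lies at the far right, near 2 on the vertical axis.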

How the data were processed

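The series is a single table of gene expression by RNA-seq of mouse intestine, with 23356 rows and 68 columns from 23 specimens in 12 groups. Its FPKM values were computed by the authors, and Cuffnorm, TopHat2 2.0.13 and FastQC are listed with build mm10 (GRCm38), per the submitters' processing notes, which give no roles. Strand handling is not given in the sources used here. Reads were not analysed here.

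From the deposited FPKM, columns were averaged per specimen on log2(FPKM + 1), the 14098 genes with 2 or more of the 23 specimens at 1 FPKM or above were kept, and limma 3.58.1 in R 4.3.3 (lmFit, eBayes with trend) was fitted to all 12 groups, which share 1 estimate of spread, with Benjamini-Hochberg adjustment over all genes. The wildtype duodenum specimens, labelled as 2 animals, differed about as much as lanes of a specimen do (0.987 times the lane noise in run 1 and 1.05 times in run 2) and entered as 1 sample. Tumour numbers were not taken to pair ileum with colon tumours, since the labels give no pairing. The correlation across genes of their deviations was -0.0658 in the knockout and 0.0675 in the wildtype animal. With 1 such value per animal it cannot settle whether they are paired. Depth in reads was not used here, and precision is limited by 2 tumours a group.

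The comparison, its gene lists (48) and its tests were chosen with earlier results of these data known. Named genes are Cftr and Apc and the 10 largest changes each way. Those changes were taken among called genes whose groups do not overlap, at 5 FPKM or more in the higher group. Also named are up to 6 members of each list with the smallest p together with its defining genes. For the difference between animals 5 genes each way are named. Other genes, among them Hba-a1, Hba-a2, Defa17 and Mptx1, were chosen after their values were seen. Genes whose names had turned into dates were not named, and a few members of the lists are not reported here. Overlapping genes on the opposite strand, such as Gm15592 at Cftr, Gm11748 at Engase and Apex2 at Alas2, cannot be told apart without strand. Positions and coding sequences are from GENCODE M21 and promoters from RefSeq, where 10417 of the tested genes matched. Alternatives were another pseudocount, filters, scalings, fits on fewer samples, single lanes, a replicate block and leaving out each tumour.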

Additional observations from a re-analysis of the deposited data

How the results depend on the processing

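The main counts were 1017 higher and 875 lower in the ileum tumours. Counts within 1.5 times of these came from a pseudocount of 0.1, no filter, a filter on the 4 tumours, quantile and upper-quartile scaling, a fit on the compared groups alone, robust eBayes, averaging on the FPKM scale, and the wildtype duodenum as 2 specimens. The share of called genes that were higher was 53.8%, against 44.3% after quantile normalisation and 50.7% after upper-quartile scaling. Fits on the 8 ApcMin tumours gave 660 higher and 376 lower, and their first and second lanes gave 613 and 626 higher and 337 and 353 lower. Leaving out 1 tumour gave 451 to 1322 higher and 343 to 1169 lower, the lowest of them without knockout ileum tumour 2 and without knockout ileum tumour 1, where the lone tumour is assumed to vary like the other groups. Without knockout colon tumour 2 it was 639 higher. Without both knockout ileum tumour 2 and colon tumour 1, an alternative chosen after seeing the data, the counts were 244 and 234. With a replicate block on the tumour numbers, which the labels do not give as pairs, they were 480 higher and 250 lower in the compared groups. In the 8 tumours they were 367 and 123. The cause of these changes was not tested.

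For the difference between the animals, 0 genes passed, and 1 lower gene passed without a filter, with upper-quartile scaling, with the wildtype duodenum as 2 specimens and without knockout ileum tumour 1. Leaving out 1 tumour gave 0 to 149 higher and 0 to 141 lower, the highest without wildtype colon tumour 2. Of 161 named genes 126 passed, and leaving out tumours could not turn their sign, since their groups do not overlap. None of the 126 changed sign in any of the 20 settings. The genes that follow did not pass and turned sign. Leaving out 1 tumour took the log2 change of Cdx2 between -0.58 and 1.84, Fabp6 between -0.25 and 3.91, Reg3b between -1.03 and 2.75, Reg3g between -0.48 and 2.69, Mptx1 between -1.92 and 2.28, Reg4 between -0.26 and 2.90, Retnlb between -2.67 and 0.19, H19 between -0.064 and 0.80, and Hba-a2 between -5.01 and 0.83. Without both tumours it was -0.55 for Cdx2, -1.08 for Reg3b, -0.59 for Reg3g and 1.05 for Hba-a2, and after quantile normalisation -0.12 for Epcam. Depth in reads was not used here, and for genes near 0 FPKM that did not pass, a difference may have been missed rather than absent.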
